A study of Mus musculus with 4 samples.

Results

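Sptssb, which encodes a small subunit of serine palmitoyltransferase, was the member of a group of sphingolipid synthesis genes that differed most between the diets, and in white fat of mice on a high fat diet its probe was no brighter than some negative control spots. The group was chosen by name, with earlier results of these data known, and holds 10 genes of the 17737 tested: Sptlc1, Sptlc2, Sptssa, Sptssb, Degs1, Degs2, Ugcg, Sgms1, Sgms2 and Asah1. They were found by gene symbol or description, older names included, and are read by 17 of the 41174 probes on the array. All 17 probes passed the filter on dim probes, and 4 of the 10 genes had more than 1 probe.

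The tissue came from female C57BL/6 mice that received either a high fat diet (HFD, High fat diet 32) or a low fat diet (LFD, CE2) for 18 weeks from 8 weeks of age. There were 2 HFD arrays and 2 LFD arrays, and each sample was made of fat mixed from 3 mice. The labels do not name the depot, and they do not say whether the 2 samples of a diet were separate pools, so a p-value here speaks only of how far these samples scatter, and that scatter may be technical. The 1-colour Agilent arrays report 1 brightness per spot, and values below are log2 signals relative to the 75th percentile of the same array unless they are said to be linear. A probe was tested if the scanner's software, Feature Extraction, flagged it as well above background on the 2 HFD arrays, on the 2 LFD arrays or on all 4.

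Sphingolipids are membrane lipids built on a long-chain base. Serine palmitoyltransferase, a complex of Sptlc1 with Sptlc2 or Sptlc3 and a small subunit, joins serine to a fatty acyl-CoA, and the small subunits Sptssa and Sptssb raise its activity and affect which acyl chain it prefers. The product is acylated to dihydroceramide and desaturated to ceramide, which can be turned into glucosylceramide or sphingomyelin, or broken down to sphingosine; ceramide in fat has long been studied in connection with obesity and insulin action.

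The probes of both small subunits and of both desaturases are shown because the results turn on them. The first 30 of the 60 bases of each are given 5′ to 3′, with the mm9 position of the whole probe from the files. No mm9 gene annotation was used here, so the exon or UTR under each probe is not given. The Sptssa probe lies at chr12:55746509-55746568, the Sptssb probe at chr3:69624724-69624783, the Degs1 probe at chr1:184206280-184206339 and the Degs2 probe at chr12:109928501-109928560, all on the minus strand.
Sptssa: gaaatgcatttgcacgttgtgataaagaca
Sptssb: attcggtgaaagggcataacgtgttcacat
Degs1: ttataagtctcgggaaactgatgaaattct
Degs2: gatacagagtaaccaggcttacctgaactt
Probes of different members had little sequence in common. Over 125 such pairs the longest run of shared bases was 9, and over the 10 pairs between members of 1 family it was 7.

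Of the 10 genes, 1 was higher in HFD (Degs1) and 2 were lower (Sptssb and Degs2) at an adjusted p under 0.05 in limma, with p-values adjusted by Benjamini-Hochberg over 26057 probes. Over all genes tested, 5.75% were called higher and 5.61% lower, 11.4% in either direction. The other 7 members did not pass. The median difference, HFD minus LFD, was 0.09 over the 10 members and 0.02 over all genes, and all genes ran between -0.58 and 0.60 at the 10th and 90th percentiles. The members' median moved to 0.0011 without LFD replicate 2, 0.15 without LFD replicate 1 and -0.0068 under median scaling, so it had no settled sign. The 2 HFD values lay above both LFD values for 4 members (Sptlc2, Sptssa, Degs1 and Sgms1) and below both for 4 others (Sptlc1, Sptssb, Degs2 and Sgms2), while the diets overlapped for Ugcg and Asah1. Such a split was also common among all genes, of which 36.2% had HFD above LFD and 32.7% had HFD below. With an array left out, far fewer genes passed at all. In these fits the lone array of a diet is assumed to vary like the pair of the other diet, so they show how a value moves more than how firm it is. Without HFD replicate 1, 0 members were called higher and 1 lower, beside 0.0564% and 0.0507% of all genes. Without HFD replicate 2 it was again 0 and 1, beside 0.0507% and 0.0507%. Without LFD replicate 1 it was 0 and 2, beside 2.4% and 1.51%, and without LFD replicate 2 it was 0 and 2, beside 2.65% and 1.92%. The lower calls were Sptssb, and Degs2 as well when an LFD array was omitted. Both genes passed the filter only through the LFD arrays, and the filter was set once from all 4 arrays. Without an HFD array, the Sptssb call sets 1 signal within the background against the close LFD pair. Its persistence is therefore no further support.

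**Figure D1:**
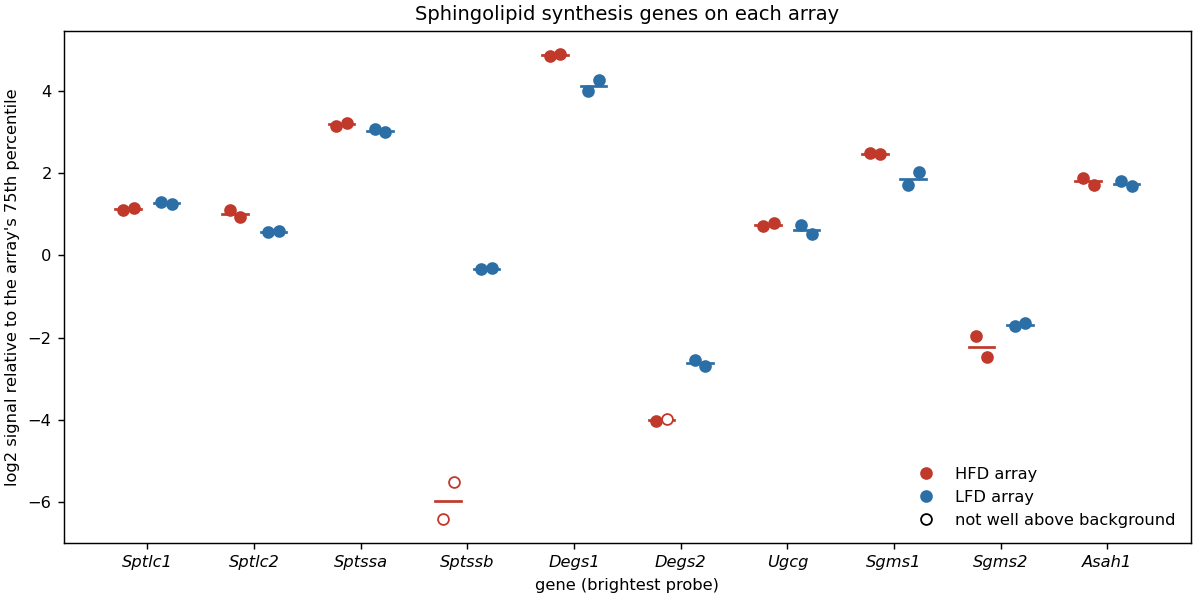
Log2 signal of the brightest probe of each of the 10 genes relative to the array's 75th percentile (vertical axis), for 2 HFD arrays (red, left) and 2 LFD arrays (blue, right); lines are means and open circles are arrays on which the probe was not well above background. Sptssb lay at -6.42 and -5.51 on the HFD arrays, against -0.34 and -0.31 on the LFD arrays, while most other genes differed by less than 1 log2 unit.

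The large subunits Sptlc1 and Sptlc2 had differences of opposite sign, and neither passed at its brightest probe. Sptlc1, which is present in every form of the enzyme, had values of 1.09 and 1.14 on the HFD arrays, against 1.30 and 1.25 on the LFD arrays. Both HFD values were the lower ones, but the difference of -0.16 (SE 0.0934, 95% interval -0.41 to 0.10, n = 2 per diet) did not pass in limma (adjusted p = 0.294). Sptlc2, the catalytic partner of Sptlc1, was read by 4 probes, and its brightest had 1.10 and 0.93 in HFD, against 0.56 and 0.58 in LFD. The diets did not overlap, and the difference of 0.44 (SE 0.107, 95% interval 0.15 to 0.73) had an adjusted p of 0.0721 in limma. This brightest probe was called higher with all 4 arrays above background (limma adjusted p = 0.0456) and with trend and robust options (0.0276). It was not called under normexp with an offset of 50 (0.106) or with the replicate number as a block (0.106).

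The 3 dimmer Sptlc2 probes lay on the same side, with HFD above LFD in every array, by 0.22, 0.51 and 0.16. The one at 0.51 (chr12:88683609-88683668 of mm9) passed on its own in limma (adjusted p = 0.0459), with values of -0.06 and -0.13 in HFD, against -0.63 and -0.60 in LFD. Of all tested probes, 5.43% were called higher and 5.27% lower, and of the 17 member probes 2 were higher and 2 lower. This probe lost its call when HFD replicate 1, HFD replicate 2, LFD replicate 1 or LFD replicate 2 was left out, with adjusted p in limma of 0.204, 0.216, 0.108 and 0.0768 in that order of omission, and under median scaling (0.0659). Its call was also lost with at least 1 array above background (limma adjusted p = 0.0694) and with the replicate number as a block (0.0864). The 4 probes therefore differed in size and in call but not in sign.

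The small subunits differed from each other. Sptssa, the more broadly expressed of them, had 3.14 and 3.22 in HFD, against 3.06 and 2.99 in LFD. Its difference was 0.15 (SE 0.0970, 95% interval -0.11 to 0.42), with HFD slightly above LFD and no call in limma (adjusted p = 0.323). The interval leaves room for a fall of 0.11 or a rise of 0.42 on the log2 scale.

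Sptssb fell. Its processed linear signal was 9.99 and 17.2 on the HFD arrays, against 658.1 and 687.7 on the LFD arrays. The same values on the log2 scale were -6.42 and -5.51 in HFD, against -0.34 and -0.31 in LFD, a fitted difference of -5.64 (SE 0.328, 95% interval -6.53 to -4.75, limma adjusted p = 0.0137). On HFD replicate 2 the scanner's software had used a surrogate, a stand-in value, so 17.2 is not a background-subtracted measurement. The fitted difference, its SE and its interval all use that value. The probe cleared the background flag on both LFD arrays and on neither HFD array, so the size of the fall is uncertain. Set against the lowest signal that was still well above background on each HFD array, Sptssb was 10.97-fold lower in HFD. That figure is a guide and not a strict bound. On HFD replicate 2 Wfdc2 was not well above background at -3.13, though the lowest signal that was lay at -3.18. In mixed tissue such as fat, fewer cells of a type and less RNA per cell cannot be told apart.

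The raw spot brightness, before any background was subtracted, showed the same split. It was 116.9 and 133.2 scanner units for Sptssb on the HFD arrays, against 868.8 and 895.1 on the LFD arrays. These are 1.10 and 1.12 times the median of the 153 negative control spots in HFD, against 12.0 and 9.28 times in LFD. That median was itself higher in HFD, at 106.2 and 119.25 scanner units, against 72.6 and 96.5 in LFD. On the HFD arrays 10 and 9 of the 153 negative controls were brighter than Sptssb, against 0 on each LFD array. With normexp background correction and an offset of 50, which pulls dim signals together, the Sptssb values were -3.12 and -2.76 in HFD, against -0.07 and -0.08 in LFD, and the difference was -2.86 (limma adjusted p = 0.00106). With each array left out in turn, the Sptssb difference lay between -6.10 and -5.18 with adjusted p of 0.0372 to 0.0497 in limma. Without an HFD array, the spread in that fit comes from the LFD pair alone, whose SD was 0.0172, against 0.649 for the HFD pair, so those p-values do not measure the scatter among HFD samples.

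**Figure D2:**
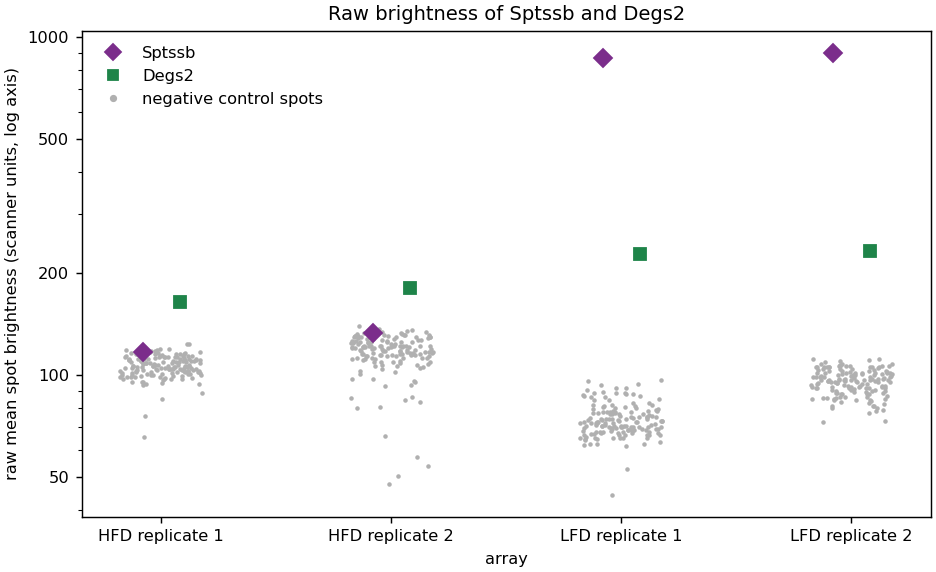
Raw mean spot brightness in scanner units (log axis) of Sptssb (diamonds) and Degs2 (squares) on 2 HFD arrays (left) and 2 LFD arrays (right), with the 153 negative control spots of each array as grey points. Sptssb lay among the negative controls on the HFD arrays and far above them on the LFD arrays; Degs2 lay above every negative control on all 4 arrays, by a smaller margin in HFD.

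Sptlc3, the alternative large subunit that can replace Sptlc2, differed by -0.64 and did not pass (limma adjusted p = 0.095).

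The desaturases moved in opposite directions. Degs1, the main dihydroceramide desaturase, was the member that rose, with 4.85 and 4.88 in HFD, against 3.99 and 4.26 in LFD. Both HFD arrays lay above both LFD arrays, the LFD arrays being the more scattered. The difference was 0.74 (SE 0.128, 95% interval 0.39 to 1.09), a 1.67-fold rise (limma adjusted p = 0.0425), and 1191 genes had a larger positive difference. The call was lost without HFD replicate 1, HFD replicate 2, LFD replicate 1 or LFD replicate 2, at limma adjusted p of 0.153, 0.200, 0.0817 and 0.0516 in that order, while the difference stayed between 0.61 and 0.87.

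Degs2, a desaturase that also hydroxylates dihydroceramide to phytoceramide and is best known from skin, gut and kidney epithelium, was dim on all arrays. Its values were -4.03 and -3.98 in HFD, against -2.54 and -2.70 in LFD. The HFD values were both lower, and the probe was well above background on HFD replicate 1 and both LFD arrays but not on HFD replicate 2. The fitted difference was -1.38 (SE 0.105, 95% interval -1.67 to -1.10, limma adjusted p = 0.0153). Its size is uncertain, since on HFD replicate 2 the lowest signal well above background was -3.18, above the Degs2 value. On the raw scale the separation was smaller, at 164.5 and 181.0 scanner units in HFD, against 227.9 and 233.3 in LFD. Those are 1.55 and 1.52 times the negative control median in HFD, against 3.14 and 2.42 times in LFD, and no negative control was brighter on any array. The higher negative control median in HFD, given above, adds to the gap between these multiples.

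The Degs2 call depended on how background was handled. Under normexp with an offset of 50 its values were -2.60 and -2.29 in HFD, against -1.94 and -2.02 in LFD, and the difference of -0.46 did not pass (limma adjusted p = 0.0666). It also missed the threshold without HFD replicate 1 (adjusted p = 0.0675) or HFD replicate 2 (0.0837) in limma, with differences of -1.36 and -1.40.

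The enzymes that use ceramide showed no call for any member. Ugcg, glucosylceramide synthase and the entry to the glycosphingolipids, had 0.70 and 0.78 in HFD, against 0.74 and 0.51 in LFD, and the diets overlapped. The difference was 0.12 (SE 0.124, 95% interval -0.22 to 0.45, limma adjusted p = 0.535). A further 2 Ugcg probes gave 0.11 and 0.32, and the 1 at 0.32 did not overlap between diets but did not pass either (adjusted p = 0.217 in limma).

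Sgms1, the sphingomyelin synthase of the Golgi, had 2.48 and 2.45 in HFD, against 1.71 and 2.01 in LFD, so both HFD arrays were higher. The difference was 0.60 (SE 0.139, 95% interval 0.23 to 0.98), 1.52-fold, with a limma adjusted p of 0.0667. Its second probe had 0.19 and 0.08 in HFD, against -0.71 and -0.44 in LFD, a difference of 0.71 with a limma adjusted p of 0.0508. Both probes thus lay just outside the threshold, and both were called under normexp with an offset of 50, with limma adjusted p of 0.0187 and 0.0207. Both were also called when all 4 arrays had to be well above background (0.0415 and 0.0295 in limma). Neither was called when at least 1 array had to be (0.0944 and 0.0761) or with the replicate number as a block (0.0959 and 0.0890). With an array left out the differences ran from 0.45 to 0.76 and from 0.57 to 0.85.

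Sgms2, a sphingomyelin synthase of the plasma membrane, ran the other way at its brighter probe. That probe had -1.96 and -2.48 in HFD, against -1.73 and -1.64 in LFD. The HFD arrays were both lower, with more scatter between them than between the LFD arrays. The difference of -0.54 (SE 0.204, 95% interval -1.09 to 0.02) did not pass (limma adjusted p = 0.155). The dimmer Sgms2 probe, not well above background on HFD replicate 2, had -3.14 and -4.33 in HFD, against -3.59 and -3.27 in LFD, and the diets overlapped. Its difference of -0.31 had no settled sign, at 0.11 under normexp with an offset of 50 and 0.29 without HFD replicate 2. The log2 ratio of the brighter Sgms1 probe to the brighter Sgms2 probe changed by 1.14, HFD minus LFD. Its diets could not overlap, since those 2 probes already lay on opposite sides. The ratios of Sptssa to Sptssb (5.79) and of Degs1 to Degs2 (2.12) were fixed in the same way. An exact two-sided permutation test of 2 arrays against 2 gave p = 0.333 for each ratio, the smallest it can give, so it cannot decide anything here.

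Asah1, the acid ceramidase that cleaves ceramide in lysosomes, was nearly level. It had 1.88 and 1.72 in HFD, against 1.79 and 1.69 in LFD. The difference was 0.06 (SE 0.111, 95% interval -0.25 to 0.36, limma adjusted p = 0.748), and its sign turned under median scaling (-0.04) and without HFD replicate 1 (-0.03).

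**Figure D3:**
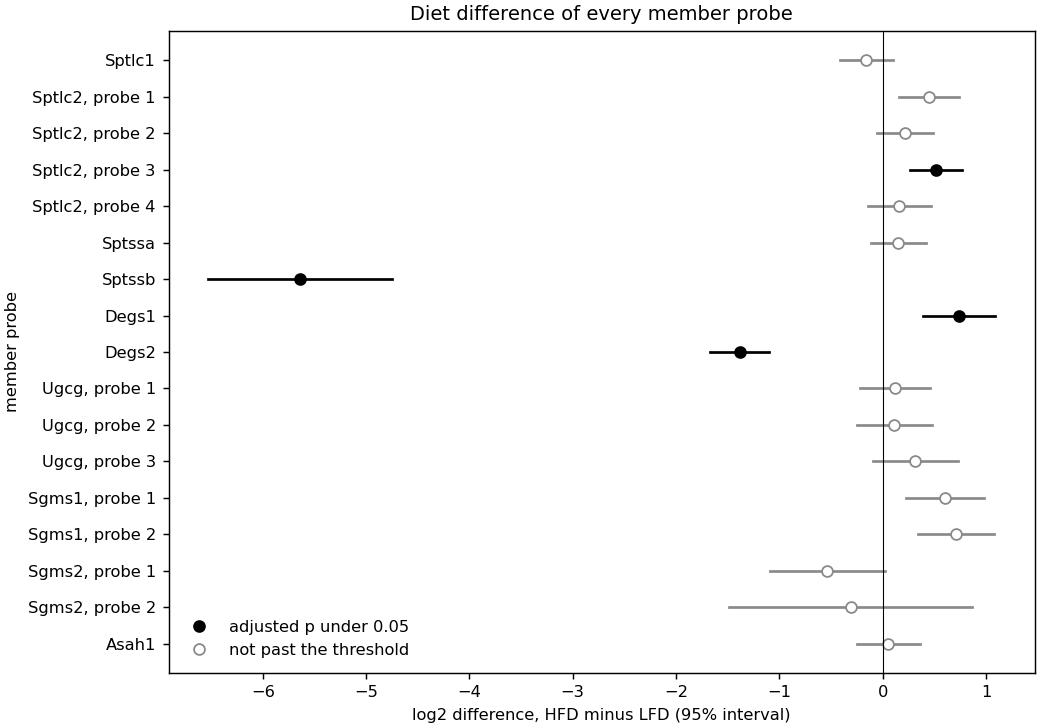
Log2 difference, HFD minus LFD, of each of the 17 probes of the 10 genes (horizontal axis) with its 95% interval from limma; filled points passed an adjusted p of 0.05 over all tested probes. Sptssb at -5.64 and Degs2 at -1.38 lay left of 0, Degs1 at 0.74 and 1 of 4 Sptlc2 probes at 0.51 lay right of it, and the other 13 did not pass.

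The genes whose 4 values followed those of Sptssb most closely were Wfdc2, Acsm3, Upk3a, Cyp2f2 and Mup6, by Euclidean distance over the 4 arrays after each probe was centred on its own mean. Their distances were 0.728, 1.01, 1.16, 1.25 and 1.32. Sptssb and Mup6 were not well above background on the HFD arrays, nor Wfdc2 and Upk3a on HFD replicate 2, so the distances and their order rest in part on signals within the background. Wfdc2 encodes a secreted protein of epithelia, Acsm3 a medium-chain acyl-CoA synthetase, Upk3a a uroplakin of the bladder lining, Cyp2f2 a cytochrome P450 of the airway and Mup6 a major urinary protein. Wfdc2 had -3.28 and -3.13 in HFD, against 1.83 and 2.22 in LFD. Upk3a had -3.70 and -3.41 in HFD, against 1.05 and 0.97 in LFD. Like Sptssb, these genes were low on both HFD arrays and high on both LFD arrays, and since the distance was taken over the same arrays their difference is not tested again here.

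Markers of several other cell types fell together with Sptssb. Of 5 tested epithelial markers of 9 listed, 4 were lower in HFD and the list's median difference was -2.72, with Krt5 (-3.43) and Cdh1 (-2.94) among them. The other tested marker, Krt14, differed by 0.26 without a call, while Epcam, Cldn4, Esrp1 and Elf3 did not reach the filter in either diet. The summed linear level of the list was 2.22 and 1.87 times the array's 75th percentile in HFD, against 10.9 and 11.1 times in LFD. With all 4 arrays required 3 of 4 epithelial markers were lower, with a median of -2.36. Under normexp with an offset of 50 the median of the 5 was -1.84. Of 5 urothelial markers 4 were lower (median -2.51), with summed levels of 1.03 and 0.896 in HFD, against 5.27 and 5.33 in LFD, and Upk3a belongs to that list. Of these 5 genes 2 were well above background on HFD replicate 2, and with all 4 arrays required 1 of 2 was lower, with a median of -1.13; under normexp with an offset of 50 the median of the 5 was -1.63. Of 8 mesothelial markers 7 were lower (median -1.78), with sums of 11.8 and 9.16 in HFD, against 30.3 and 32.3 in LFD. Their part in the Sptssb and Degs2 results was not tested.

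The brown and beige fat list also moved this way, with 4 of 7 genes lower and a median of -1.76. Its summed level was 13.98 and 18.9 in HFD, against 132.4 and 54.7 in LFD, so its LFD arrays differed from each other much more than those of Sptssb did. Of these 7 genes 5 were well above background on HFD replicate 2. With all 4 arrays required 3 of 5 were lower, with a median of -1.07. Under normexp with an offset of 50 the median of the 7 was -1.08. Of 5 tested mammary genes of 7, 1 was lower (Prlr), and the median was 0.40. Of 8 adipocyte genes 1 was lower (Retn), with a median of -0.09 (-0.26 without LFD replicate 1, 0.09 without LFD replicate 2) and summed levels of 1036 and 1112 in HFD, against 1027 and 1128 in LFD. The differences of the 8 ran from -0.90 to 2.18, with 3 positive and 5 negative. None of the positive ones was called here. Under normexp with an offset of 50, with all 4 arrays above background, or at 0.10, 1 adipocyte gene was called higher. The number called lower was 0 with the replicate number as a block and 2 with trend and robust options. With HFD replicate 1 or HFD replicate 2 left out, 0 epithelial, mesothelial and brown fat markers and 1 urothelial marker were called lower, while the lists' medians kept their sign. The part of these cell types in the members' results was not tested.

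Macrophage markers rose, as Degs1 did. Of 10 genes 7 were higher in HFD, with a median of 1.27, and all 10 had HFD above LFD on every array. The summed level was 278.2 and 287.5 in HFD, against 181.4 and 165.7 in LFD. None of the 10 was called higher with HFD replicate 1 or HFD replicate 2 left out, and 5 were with LFD replicate 1 or LFD replicate 2 left out. Of 8 fibroblast genes 2 were lower (median -0.18), and 0 with any 1 array left out. Of 6 endothelial genes and of 6 tested lymphocyte genes 0 were called in either direction. The endothelial median of -0.04 ran between -0.13 and 0.03 with an array left out. The lymphocyte median had no settled sign, at 0.26, -0.41, 0.32 and -0.69 without HFD replicate 1, HFD replicate 2, LFD replicate 1 and LFD replicate 2, and the summed lymphocyte level was 1.45 and 2.41 in HFD, against 4.45 and 1.34 in LFD. Their part in the Degs1 result was not tested.

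**Figure D4:**
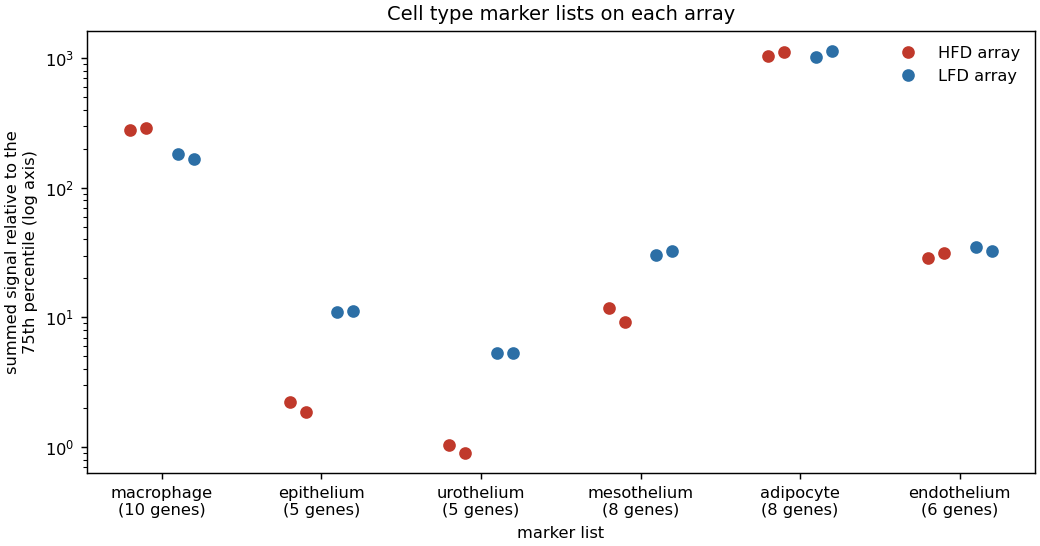
Summed linear signal of 6 marker lists relative to the array's 75th percentile (log axis), for 2 HFD arrays (red, left) and 2 LFD arrays (blue, right). Macrophage sums were higher in HFD, epithelial, urothelial and mesothelial sums lower, and adipocyte sums overlapped between diets.

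Around the members, 53 of 62 other genes of the pathway were tested, and 13 of them were higher in HFD and 0 lower in limma, beside 5.75% and 5.61% of all genes. Their median difference was 0.20, against 0.02 for all genes. Of the 9 other ceramide synthesis genes tested, 1 rose. This was Cers4, a ceramide synthase for long acyl chains, with linear levels of 9.87 and 9.39 times the 75th percentile in HFD, against 4.21 and 4.37 times in LFD, a difference of 1.17 (limma adjusted p = 0.0164). Averaged over its tested probes the Cers4 difference was 0.55, and the call was lost without HFD replicate 1 (1.13) or HFD replicate 2 (1.20).

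Upstream of the ceramide synthases, Kdsr, which reduces the first product of serine palmitoyltransferase, differed by -0.41 without a call (limma adjusted p = 0.073). Ormdl1, Ormdl2 and Ormdl3, which restrain serine palmitoyltransferase, differed by 0.12, 0.20 and 0.08, all without a call. Cers2, Cers5 and Cers6 differed by -0.21, 0.14 and -0.02, also without a call. The median of these 9 genes was 0.08.

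Among 6 genes that move or phosphorylate ceramide and its products, 2 rose. Gltp, a glycolipid transfer protein, had levels of 2.95 and 3.10 times the 75th percentile in HFD, against 1.02 and 1.15 times in LFD (difference 1.48, limma adjusted p = 0.0151). Cerk, ceramide kinase, had 2.29 and 1.97 in HFD, against 0.966 and 0.871 in LFD (difference 1.21, limma adjusted p = 0.0212). Cert1, which carries ceramide to the Golgi for sphingomyelin synthesis, differed by 0.20 without a call. The count was 0 of 6 without HFD replicate 1 or HFD replicate 2, and 1 of 6 without LFD replicate 1 or LFD replicate 2.

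Downstream of Ugcg, 1 of 7 tested glycosphingolipid synthesis genes rose. St3gal5, which makes the ganglioside GM3, had 3.27 and 3.27 times the 75th percentile in HFD, against 2.27 and 2.22 times in LFD (difference 0.54, limma adjusted p = 0.0400). This call was lost under median scaling (0.45, adjusted p = 0.0606) and without HFD replicate 1, HFD replicate 2, LFD replicate 1 or LFD replicate 2, with limma adjusted p of 0.176, 0.218, 0.0897 and 0.0723 in that order. B4galt5 and B4galt6, which make lactosylceramide from the product of Ugcg, differed by 0.52 and 0.62 without a call.

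The lysosomal genes that take glycosphingolipids apart held 7 of the 13 rises, in a list of 12 with a median of 0.58. Psap, the precursor of the saposin activators, had 67.2 and 67.5 times the 75th percentile in HFD, against 37.2 and 39.2 times in LFD (difference 0.82, limma adjusted p = 0.0237). Gla, alpha-galactosidase A, differed by 0.997. Galc, Glb1, Hexa and Ctsa also rose, by 0.58 to 0.61. This count was 3 under median scaling and 0 without any 1 of the 4 arrays, and the median stayed between 0.53 and 0.60 with HFD replicate 1, HFD replicate 2, LFD replicate 1 or LFD replicate 2 left out. Macrophage markers rose on the same arrays, as given above, and their part in these genes was not tested.

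Of 9 tested sphingomyelinases and other ceramidases, 1 rose. Acer3, an alkaline ceramidase, had levels of 1.21 and 1.05 times the 75th percentile in HFD, against 0.475 and 0.445 times in LFD (difference 1.29, limma adjusted p = 0.0180). Smpd3, a neutral sphingomyelinase, differed by -0.61 without a call. Of 10 tested enzymes and receptors of sphingosine-1-phosphate, 1 rose, the sphingosine kinase Sphk1 (difference 0.71, limma adjusted p = 0.0409). Neither the Acer3 nor the Sphk1 call held with HFD replicate 1, HFD replicate 2, LFD replicate 1 or LFD replicate 2 left out, where adjusted p in limma was at least 0.0512 for Acer3 and at least 0.0580 for Sphk1.

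**Figure D5:**
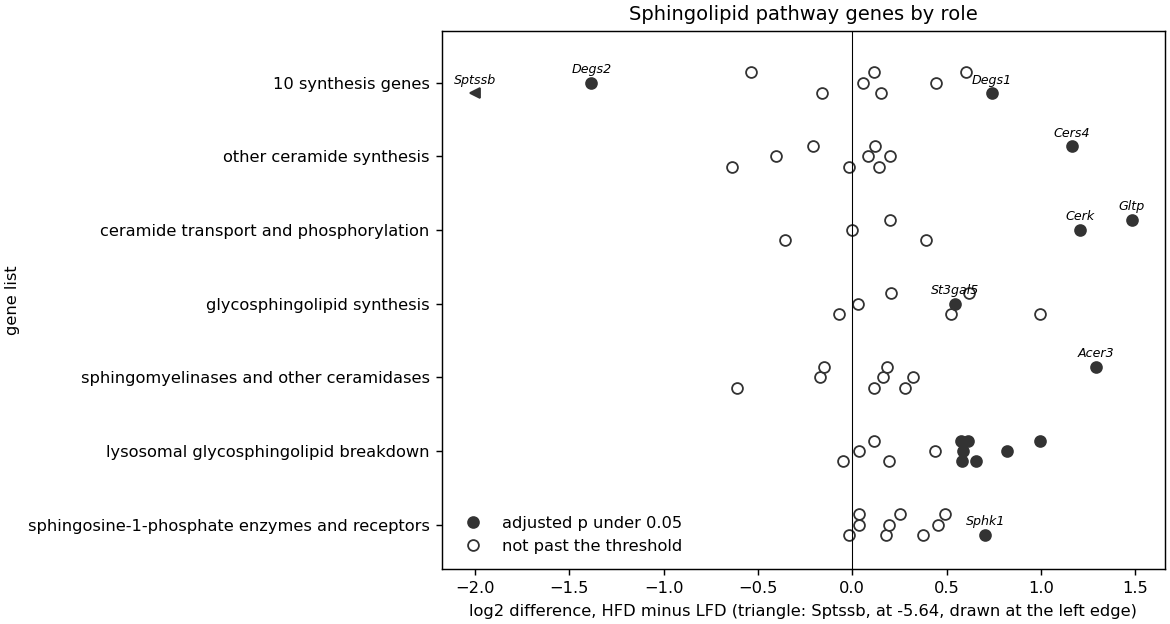
Log2 difference, HFD minus LFD, of each tested gene of 7 lists of the sphingolipid pathway (horizontal axis), 1 row per list; filled points passed an adjusted p of 0.05 in limma, and the triangle is Sptssb, which lies beyond the left edge at -5.64. The falls that passed were Sptssb and Degs2, and 7 of the rises were in the lysosomal list.

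The genes next to Sptssb and Degs2 on their chromosomes, taken from the order of a RefSeq table after the values were seen, showed no common direction. Beside Sptssb, B3galnt1, Nmd3 and Sis differed by 0.43, -0.03 and 0.51, none past the threshold, and Otol1 had no probe by that name. Beside Degs2, Slc25a29 was lower, with a difference of -0.96 (limma adjusted p = 0.0370), and both Eml1 values in HFD lay below both LFD values, differing by -0.38 without a call. Yy1 differed by 0.41 without a call, while Evl was higher by 1.49 (limma adjusted p = 0.0444). The Evl probe lies on the opposite strand, 1928 bases from the Degs2 probe in mm9.

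The promoters of the 3 called genes are shown because their levels differed most and in opposite directions. RefSeq sequences of GRCm38.p6 matched 9 of the 10 members by symbol, with 17 start sites, and Asah1 was not among them. The 250 bases before the start are printed 5′ to 3′ on the gene's strand, for Sptssb at chr3:69859895-69860144, for Degs2 at chr12:108702307-108702556 and for Degs1 at chr1:182282196-182282445, all on the minus strand. Capitals mark the GC box (GGGCGG), which reads CCGCCC where it lies on the other strand, and the E-box (CACGTG).
Sptssb: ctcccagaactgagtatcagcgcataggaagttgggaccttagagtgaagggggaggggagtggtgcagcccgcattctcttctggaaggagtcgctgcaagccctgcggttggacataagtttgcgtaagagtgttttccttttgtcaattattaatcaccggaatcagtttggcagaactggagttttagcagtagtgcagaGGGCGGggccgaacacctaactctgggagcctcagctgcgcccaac
Degs2: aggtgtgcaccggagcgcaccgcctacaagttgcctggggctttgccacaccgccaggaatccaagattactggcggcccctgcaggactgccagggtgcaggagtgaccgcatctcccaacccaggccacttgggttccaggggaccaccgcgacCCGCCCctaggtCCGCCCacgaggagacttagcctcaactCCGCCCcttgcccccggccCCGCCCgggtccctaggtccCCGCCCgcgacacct
Degs1: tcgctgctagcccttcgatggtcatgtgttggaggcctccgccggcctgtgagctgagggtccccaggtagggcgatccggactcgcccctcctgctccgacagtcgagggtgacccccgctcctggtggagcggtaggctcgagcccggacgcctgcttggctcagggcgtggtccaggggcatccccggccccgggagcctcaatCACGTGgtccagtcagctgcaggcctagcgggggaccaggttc
The search covered both strands for these letters and for the TATA box (TATAAA), the box with letters CCAAT, the nuclear receptor half-site (AGGTCA) and the Grainyhead motif (AACCGGTT). None of these 6 motifs overlapped another in the 3 windows.

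The 2 genes that fell had no motif content in common beyond the GC box. Sptssb held 1 GC box, 46 bases before its start, in a window of 53.2% GC with 9 CpG. Degs2 held 5 GC boxes in a window of 69.2% GC with 18 CpG. Degs1 held no GC box and 1 E-box, 43 bases before its start, in a window of 69.6% GC. Over 32851 RefSeq windows of the same length, the GC box occurred in 32.7%, the E-box in 6.02%, the TATA box in 12.4%, the CCAAT box in 33.8%, the nuclear receptor half-site in 14.02% and the Grainyhead motif in 0.116%, and the median GC content was 52.4%. The small subunit that did not pass, Sptssa, had 1 GC box and 2 CCAAT boxes in a window of 68.8% GC.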

How the data were processed

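Probe brightness of 4 one-colour Agilent arrays was analysed, from the scanner output, linear intensities, that the authors deposited (Feature Extraction 11.0.1.1 per the file headers, 11.5.1.1 per the submitters' processing notes). Background was subtracted by that software, per the file headers, and the flags for spots well above background, saturated or outlying are its own, as deposited. A table of values, also deposited, gave for every spot the ratio of its processed signal to the 75th percentile of the array (the quotient of scanner signal and table value was constant on each array), so it is linear and uncentred; its column medians were 0.130 and 0.131 in HFD and 0.117 and 0.127 in LFD. All arrays shared slide 1 and scan 1.

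Processed signals, divided by the array's 75th percentile and put on a log2 scale, were fitted in limma 3.58.1 (lmFit, eBayes, two-sided, R 4.3.3) over 26057 probes, with Benjamini-Hochberg adjustment. Outlier spots (60 to 115 per array) were left out and no spot was saturated. A gene is its brightest tested probe. Probes well above background numbered 27251 and 21312 in HFD and 26420 and 27937 in LFD. Log2 signals correlated across probes with r of 0.992 within HFD, 0.989 within LFD and 0.965 to 0.971 between diets. The number of arrays limits the precision.

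The members and gene lists were chosen with earlier results of these data known. Named genes were all members, up to 3 called genes of smallest p per other list and direction, and the 5 genes closest to Sptssb, uncharacterised transcripts and receptor or immunoglobulin segments passed over (1 gene that the rule names is not reported here); list genes without a call that are named as values, and the marker genes and neighbours, were chosen after their values were seen. The 10.97-fold figure for Sptssb sets its LFD mean against the mean, over the HFD arrays, of whichever is higher, its own signal or the dimmest one flagged as well above background. The fit was tested on simulated data with the same spread in both diets. Sptssb had unlike spreads and HFD signals within the background, so that test says nothing about its result. Across tested probes, the deviations of the replicate 1 arrays from their diet means had a correlation of -0.0043 between the diets. With 2 arrays per diet the replicate 2 arrays only mirror this, so no pairing was shown and none can be excluded.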

Additional observations from a re-analysis of the deposited data

How the results depend on the processing

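Across 16 alternatives the Sptssb difference ran between -6.10 and -2.86 and kept its call, except with no filter on dim probes (-5.64, limma adjusted p = 0.107); requiring all 4 arrays above background removed Sptssb and Degs2. At the brightest probe of each gene, the sign turned for Asah1 (-0.038 under median scaling, -0.026 to 0.136 with an array left out) and Ugcg (-0.00040 to 0.235 with an array left out). Without the filter, 0 genes were called in limma (5609 of 27614 at an unadjusted p under 0.05), so 0 members and 0 other pathway genes; the cause was not tested. Genes called higher (1019) numbered 1617 under normexp, 1599 with all 4 arrays above background, 519 with at least 1, 1826 with trend and robust options and 2259 at 0.10, and 9 to 470 with an array left out. Genes called lower (995) numbered 446 with at least 1 array, 1808 with trend and robust and 2188 at 0.10, and 9 to 341 with an array left out. Members called higher (1) were 2 under normexp, 3 with all 4 arrays, trend and robust or 0.10, 0 with at least 1 array, and 0 to 0 with an array left out; members called lower (2) were 1 under normexp, 0 with all 4 arrays, and 1 to 2 with an array left out. Other pathway genes called higher (13) were 8 under median scaling, 5 with at least 1 array and 0 to 3 with an array left out; those called lower (0) were 2 under normexp, all 4 arrays, trend and robust, and the probe mean, 1 under median scaling and 3 at 0.10. With the replicate number as a block, though no pairing of these arrays is known, 220 genes were higher and 208 lower. In that fit 0 members were higher and 2 lower (Sptssb -5.64, limma adjusted p = 0.0462), and 3 other pathway genes were higher. The median over all genes was 0.02, -0.02 under quantile normalization, -0.08 under median scaling and 0.07 under normexp. No block for the slide could be fitted, as all arrays shared it.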
